A study of Mus musculus with 19 samples.

Results

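Germ cells carry paralogs of several subunits of TFIID, the general transcription factor that recognizes core promoters for RNA polymerase II. A set of 8 genes, made up of paralogs and general subunits, was followed through meiotic initiation in mouse spermatogenesis. They were chosen by symbol: Taf4b, Taf7l, Taf7, Taf9b, Taf9, Taf1, Tbp and Tbpl1. All 8 were found among the 22419 gene symbols of the expression tables, and all 8 were among the 12461 genes that passed the expression filter (above 1 TPM in at least 1 library) and were tested. Taf4, the general counterpart of Taf4b, and 4933416C03Rik, a further relative of Taf7l and Taf7, were not among the 8 and are given as comparators.

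RNA-seq was done on 7 libraries of preleptotene cells, the stage at which germ cells enter meiosis. Testes were synchronized by giving WIN18,446, which blocks retinoic acid synthesis, from day 2 to day 8 after birth and retinoic acid on day 9, and were collected about 6.75 days later. STRA8, a protein that germ cells make in response to retinoic acid, separated the groups. The Stra8-deficient group came from Stra8 knock-out mice (n = 3), and the low-STRA8 and high-STRA8 groups came from Stra8 heterozygous mice (n = 2 each) whose testes stained weakly or strongly for the protein. The study's methods place low-STRA8 cells before and high-STRA8 cells after the start of meiosis, so high-STRA8 against Stra8-deficient compares cells with and without the protein, and high-STRA8 against low-STRA8 compares later with earlier cells of 1 genotype. All 7 libraries were on a C57BL/6 background and carried Ddx4 Cre, which is active in the germ line, and a Rosa26 tdTomato reporter, by whose fluorescence the cells were sorted. For ChIP-seq, a FLAG antibody was used on whole synchronized testes of Stra8 FLAG/FLAG mice, whose own Stra8 gene encodes a tagged protein, and of wild-type mice (3 of each, both C57BL/6 with under 4% of 129).

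TFIID consists of the TATA-binding protein TBP and a set of TBP-associated factors, the TAFs. TAF1 is the large scaffold subunit, TAF4 pairs with TAF12 in the core of the complex, TAF9 pairs with TAF6 and is shared with the coactivator SAGA, and TAF7 binds TAF1. TAF4B is a gonad-enriched relative of TAF4, TAF7L is a germ cell relative of TAF7 needed for normal sperm formation, TAF9B is a widely expressed relative of TAF9, and TBPL1 (also called TRF2 or TLF) is a relative of TBP that does not bind the TATA box and is needed late in spermatogenesis.

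The libraries held between 25049625 and 30015072 estimated counts. Stra8 itself, which checks the labels, was at 15.3 ± 9.12 TPM (SD, n = 3) in Stra8-deficient cells, 276 ± 56.2 TPM (n = 2) in low-STRA8 cells and 1173 ± 105 TPM (n = 2) in high-STRA8 cells. All 7 listed germ cell markers exceeded 1 TPM in every library, with summed levels of 4329 to 6039 TPM in Stra8-deficient, 3603 and 3980 TPM in low-STRA8 and 7126 and 8383 TPM in high-STRA8 cells. The single markers did not move together. Dazl, Sycp3 and Dmc1 were highest in high-STRA8 libraries. Ddx4 ranged only from 148 to 213 TPM and Mael from 605 to 737 TPM over the 7 libraries. Tex101 was at 1636 to 2504 TPM in Stra8-deficient, 563 and 714 TPM in low-STRA8 and 1853 and 2842 TPM in high-STRA8 libraries. Rec8 was at 183 to 281 TPM in Stra8-deficient and at 135 and 149 TPM in high-STRA8 libraries. Sertoli cell markers were above 1 TPM for 8 of 8 genes in every library (summed 156 to 212 TPM, 66.3 and 331 TPM, and 227 and 230 TPM in the same order of groups), and macrophage and blood cell markers summed to 7.93 to 26 TPM, 41.9 and 46.3 TPM, and 1.54 and 7.68 TPM. No Sertoli cell marker passed in any comparison (0 of 8 by edgeR, at an unadjusted p under 0.05 and by DESeq2), and the haemoglobin genes Hbb-bs and Hba-a1 were lower in high-STRA8 than in low-STRA8 cells. Markers of undifferentiated spermatogonia summed to 47.2 to 61.7 TPM in Stra8-deficient cells and to 14.8 to 21.6 TPM in the other libraries. The difference lay in Zbtb16, Sall4 and Lin28a. Etv5 overlapped between these libraries, and Gfra1 and Nanos2 stayed below 1 TPM in every library. Id4 was at 0.679 to 1.23 TPM in Stra8-deficient, 1.15 and 0.408 TPM in low-STRA8 and 2.12 and 1.92 TPM in high-STRA8 libraries. The part that other cells may play in the results was not tested, and in these bulk samples fewer cells of a type and less RNA per cell cannot be told apart. The sources do not say how many animals went into a library, so p-values measure the spread between these libraries.

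Taf4b, Taf7l and Taf1 were higher in high-STRA8 cells than in the knock-out, and the same 3 genes were higher in high-STRA8 than in low-STRA8 cells. Taf4b changed most against the knock-out, at 2.12-fold, and Taf1 changed most between the heterozygous groups, at 2.09-fold. Tbpl1 was lower in high-STRA8 than in low-STRA8 cells, and Taf7, Taf9b, Taf9 and Tbp passed no test. By edgeR's quasi-likelihood test with Benjamini-Hochberg adjustment over all 12461 genes (adjusted p under 0.05), 3 of the 8 were higher and 0 were lower in high-STRA8 against Stra8-deficient cells, where 18.9% of all genes were higher and 18.3% were lower. No member was lower there at an unadjusted p under 0.05 or by DESeq2, and limma on log2(TPM + 1) called 1 lower (Tbpl1). Against low-STRA8 cells 3 were higher and 1 was lower, with 21.4% and 18.2% of all genes called. Low-STRA8 against Stra8-deficient cells gave 1 higher gene, Taf4b, and 0 lower genes, with 10.2% and 13.9% of all genes called. In that comparison 2 were lower at an unadjusted p under 0.05, and DESeq2 and limma on log2(TPM + 1) each called the same number, Taf7l and Taf1. On the TPM scale limma called 495 higher and 2690 lower genes there, against 1266 and 1730 by edgeR, so the split of directions depends on the scaling. The median log2 fold changes of the 8 genes were 0.30, 0.05 and 0.19 in these comparisons, in that order, and those of all genes were -0.02, 0.01 and 0.03. Both comparisons with high-STRA8 cells share its 2 libraries, so the recurrence of the same 3 genes was not read as independent. Groups without overlap were common among all tested genes. High-STRA8 libraries lay above every Stra8-deficient library in 27.9% of genes and below in 39.3%. Against low-STRA8 libraries these shares were 44.1% and 30.4%. Low-STRA8 libraries lay above every Stra8-deficient library in 12.1% and below in 39.4%.

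**Figure D1:**
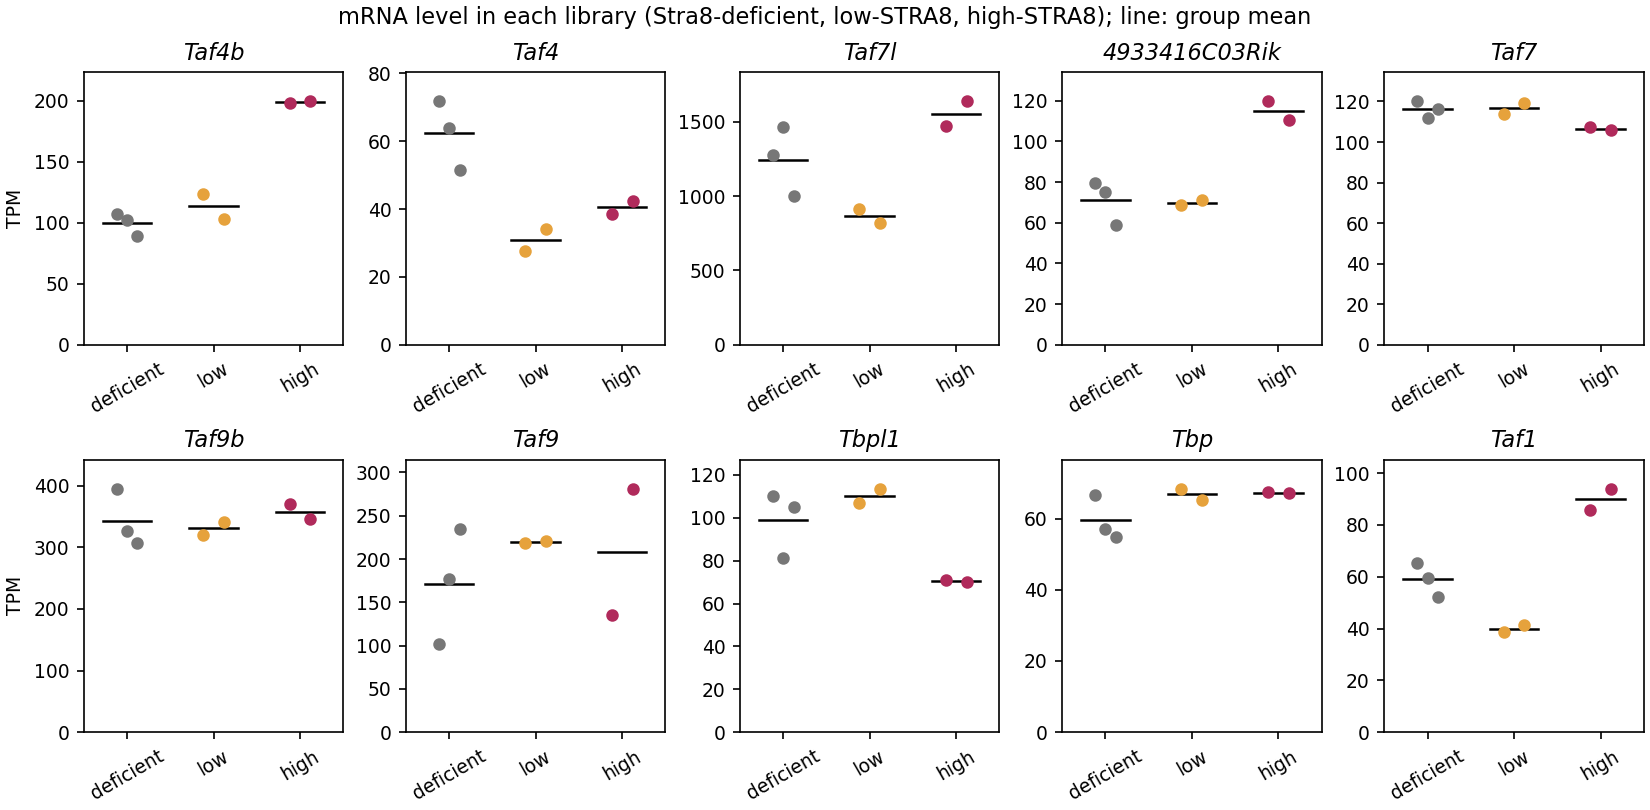
TPM of the 8 genes and the comparators Taf4 and 4933416C03Rik in each of the 7 libraries, with points for libraries and a bar for each group mean. In Taf4b, Taf7l, 4933416C03Rik and Taf1 both high-STRA8 points lie above every other point, and in Tbpl1 and Taf7 both lie below.

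TPM is scaled by transcript length, so levels may be set against each other across genes. Taf7l stood first in every group, at 1245 ± 231 TPM (SD, n = 3) in Stra8-deficient, 865 ± 64.5 TPM (n = 2) in low-STRA8 and 1553 ± 117 TPM (n = 2) in high-STRA8 cells, which gave it ranks 93, 124 and 66 among the 12461 genes. Taf9b came next in each group, with means of 343, 331 and 358 TPM. In high-STRA8 cells the order went on with Taf9 (208 TPM), Taf4b (199 TPM), Taf7 (107 TPM), Taf1 (89.9 TPM), Tbpl1 (70.6 TPM) and Tbp (67.3 TPM), and only the neighbours Taf9 and Taf4b overlapped in their library values. In low-STRA8 cells Taf9 (219 TPM) was followed by Taf7, Taf4b and Tbpl1 at 117, 113 and 110 TPM, where Taf7 and Tbpl1 each overlapped Taf4b, and then by Tbp (66.8 TPM) and Taf1 (40.0 TPM). In Stra8-deficient cells Taf9 (171 TPM) overlapped Taf7 (116 TPM), Taf4b (99.6 TPM) overlapped Tbpl1 (98.9 TPM), and Tbp (59.5 TPM) overlapped Taf1 (59.0 TPM). In each group the paralogs Taf7l, Taf9b, Taf4b and Tbpl1 had higher mean levels than the general subunits Taf7, Taf9, Taf4 and Tbp. The place of Taf9 in these orders is not settled, because its reads cannot be told apart from those of the overlapping gene Ak6. Taf9 and Ak6 summed exceeded Taf9b in Stra8-deficient replicates 2 and 3 and low-STRA8 replicate 1. The sum was below Taf9b in Stra8-deficient replicate 1, low-STRA8 replicate 2 and both high-STRA8 libraries.

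Taf4b (ENSMUSG00000054321, mm10 chromosome 18, 14783245 to 14900359, plus strand) was measured at 108, 102 and 89.0 TPM in the 3 Stra8-deficient libraries, 124 and 103 TPM in the low-STRA8 libraries, and 198 and 200 TPM in the high-STRA8 libraries. Both high-STRA8 values were above all others, while low-STRA8 and Stra8-deficient values overlapped. The log2 fold change was 1.09 ± 0.099 (SE, edgeR adjusted p = 0.000159) against Stra8-deficient and 0.71 ± 0.11 (edgeR adjusted p = 0.00238, 1.64-fold) against low-STRA8 cells. Low-STRA8 cells were 1.3-fold above Stra8-deficient cells (log2 0.38 ± 0.0997, edgeR adjusted p = 0.0288). That last call held in 11 of 20 alternative settings, with adjusted p from 0.00492 to 0.268. On the TPM scale limma gave 0.19 for it, about equally with 1 or 0.1 TPM added (adjusted p = 0.268 and 0.267). With the replicate number as a block (adjusted p = 0.0733) it was also lost, as it was without low-STRA8 replicate 1 (adjusted p = 0.133), Stra8-deficient replicate 2 (0.0705) or high-STRA8 replicate 1 (0.0664) or 2 (0.0658).

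Taf4 (ENSMUSG00000039117, chromosome 2, 179912152 to 179976646, minus strand), the general form, went the other way against the knock-out. Its levels were 71.7, 63.8 and 51.5 TPM in Stra8-deficient, 27.6 and 34.1 TPM in low-STRA8 and 38.6 and 42.4 TPM in high-STRA8 libraries. All 3 Stra8-deficient values were above the 4 heterozygous values. Taf4 was lower in low-STRA8 than in Stra8-deficient cells (log2 fold change -0.81 ± 0.152, edgeR adjusted p = 0.00865) and in high-STRA8 cells than in the knock-out (-0.53 ± 0.151, adjusted p = 0.0243), and its change from low-STRA8 to high-STRA8 was 0.28 (adjusted p = 0.209). Exons of Taf4 overlap 4921531C22Rik, and those of 4933416C03Rik overlap Ptprr, on the opposite strand. The Taf4 call in high-STRA8 cells was lost when any of 4 libraries was left out (adjusted p of 0.0693 and 0.0661 without Stra8-deficient replicates 1 and 2, and of 0.162 and 0.0883 without high-STRA8 replicates 1 and 2). The ratio of Taf4b to Taf4 in TPM was 1.5, 1.6 and 1.73 in Stra8-deficient, 4.47 and 3.03 in low-STRA8, and 5.13 and 4.70 in high-STRA8 libraries. No heterozygous library overlapped the knock-out libraries, and the geometric means were 1.61, 3.68 and 4.91.

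Taf7l (ENSMUSG00000009596, chromosome X, 134460118 to 134476490, minus strand) was the most abundant of the 8 genes. The Stra8-deficient libraries gave 1274, 1461 and 1001 TPM, the low-STRA8 libraries 911 and 819 TPM, and the high-STRA8 libraries 1470 and 1635 TPM. High-STRA8 values were above all others and low-STRA8 values below all others, but the lowest high-STRA8 value was close to the highest Stra8-deficient value. Taf7l was higher in high-STRA8 than in low-STRA8 cells (log2 fold change 0.82 ± 0.157, edgeR adjusted p = 0.0051, 1.77-fold), a call that held in 20 of 20 alternatives. Against Stra8-deficient cells it was higher by 0.45 ± 0.141 on the log2 scale (edgeR adjusted p = 0.0351, 1.37-fold). This call held in 12 of 20 alternatives, with adjusted p up to 0.231, and leaving out high-STRA8 replicate 1 (0.0769) or 2 (0.231) or Stra8-deficient replicate 1 (0.0672) or 3 (0.0608) ended it. Low-STRA8 against Stra8-deficient cells gave -0.37 ± 0.143 (edgeR adjusted p = 0.0976).

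Taf7l has 2 annotated transcripts that start at different sites, and they behaved differently. The longer one, which starts at position 134476490, was estimated at 701 to 1004 TPM in Stra8-deficient, 532 to 633 TPM in low-STRA8 and 1135 to 1328 TPM in high-STRA8 libraries, with no overlap between groups. The shorter one, which starts inside the gene at position 134474993, was at 276 to 457 TPM, 277 to 288 TPM and 307 to 335 TPM, so that its range in the knock-out covered the other groups. The longer transcript made up 68.7 to 78.3% of Taf7l in Stra8-deficient, 64.9 to 69.6% in low-STRA8 and 77.2 to 81.2% in high-STRA8 libraries. These splits are estimates from short single-end reads, and no test was run on them.

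Taf7 (ENSMUSG00000051316, chromosome 18, 37640491 to 37644204, minus strand), which binds TAF1 in general TFIID, passed no test. It was at 120, 112 and 116 TPM in Stra8-deficient, 114 and 119 TPM in low-STRA8, and 108 and 106 TPM in high-STRA8 libraries. The high-STRA8 values lay below the others by a few TPM, and low-STRA8 and Stra8-deficient values overlapped. Its log2 fold changes were -0.04 (edgeR adjusted p = 0.749), -0.23 (0.0931) and 0.19 (0.155) in high-STRA8 against Stra8-deficient, high-STRA8 against low-STRA8 and low-STRA8 against Stra8-deficient cells. The ratio of Taf7l to Taf7 was 10.6, 13.0 and 8.60 in Stra8-deficient, 8.01 and 6.86 in low-STRA8, and 13.7 and 15.5 in high-STRA8 libraries, so the germ cell form was the more abundant message in every library.

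4933416C03Rik (ENSMUSG00000074734, chromosome 10, 116111664 to 116113917, minus strand) is a single-exon gene related to Taf7l and Taf7. The study names it Taf7l2 and describes it as an apparent rodent-specific retrogene of Taf7l. The levels of 4933416C03Rik were 79.5, 75.3 and 59.1 TPM in Stra8-deficient, 68.5 and 71.1 TPM in low-STRA8, and 120 and 110 TPM in high-STRA8 libraries. Only the high-STRA8 libraries stood apart. The gene was higher in high-STRA8 cells than in Stra8-deficient cells (log2 fold change 0.77 ± 0.122, edgeR adjusted p = 0.00187, 1.70-fold) and than in low-STRA8 cells (0.61 ± 0.136, adjusted p = 0.00958, 1.52-fold). Its ratio to Taf7 was 0.507 to 0.672 in Stra8-deficient libraries, 0.602 and 0.595 in low-STRA8 libraries and 1.11 and 1.04 in high-STRA8 libraries. Of the 1903 31-base words in the longer Taf7l transcript, 3 (0.158%) also occur in 4933416C03Rik, and Taf7l with both genes' counts summed gave log2 fold changes of 0.48 and 0.80 in the comparisons with Stra8-deficient and low-STRA8 cells.

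Taf9b (ENSMUSG00000047242, chromosome X, 106206883 to 106221158, minus strand) was at 395, 327 and 306 TPM in Stra8-deficient, 321 and 342 TPM in low-STRA8, and 370 and 346 TPM in high-STRA8 libraries. The Stra8-deficient range covered every other value. Its log2 fold changes were 0.15 (edgeR adjusted p = 0.341), 0.01 (0.976) and 0.15 (0.401) in the comparisons as ordered for Taf7.

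Taf9 (ENSMUSG00000052293, chromosome 13, 100651579 to 100656060, plus strand), the general form shared with SAGA, varied widely within the Stra8-deficient and high-STRA8 groups. It was at 102, 176 and 235 TPM in Stra8-deficient, 218 and 220 TPM in low-STRA8, and 135 and 281 TPM in high-STRA8 libraries. All groups overlapped, and the log2 fold changes of 0.32 ± 0.365, -0.22 ± 0.401 and 0.53 ± 0.363 had edgeR adjusted p values of 0.53, 0.704 and 0.322. Taf9 overlaps Ak6, an adenylate kinase gene, on the same strand, and 1090 of the 1200 31-base words of its main transcript (90.8%) also occur in Ak6 transcripts. Libraries with more Taf9 had less Ak6, and the sum of both stayed between 306 and 343 TPM while the share assigned to Taf9 ran from 30.5 to 91.4%. With the counts of both genes summed, the log2 fold changes were -0.08 (edgeR adjusted p = 0.503), -0.22 (0.0996) and 0.14 (0.277), and how the reads divide between Taf9 and Ak6 cannot be told apart in these files. The ratio of Taf9b to Taf9 was 1.31 to 3.87 in Stra8-deficient, 1.47 and 1.55 in low-STRA8, and 2.74 and 1.23 in high-STRA8 libraries.

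**Figure D2:**
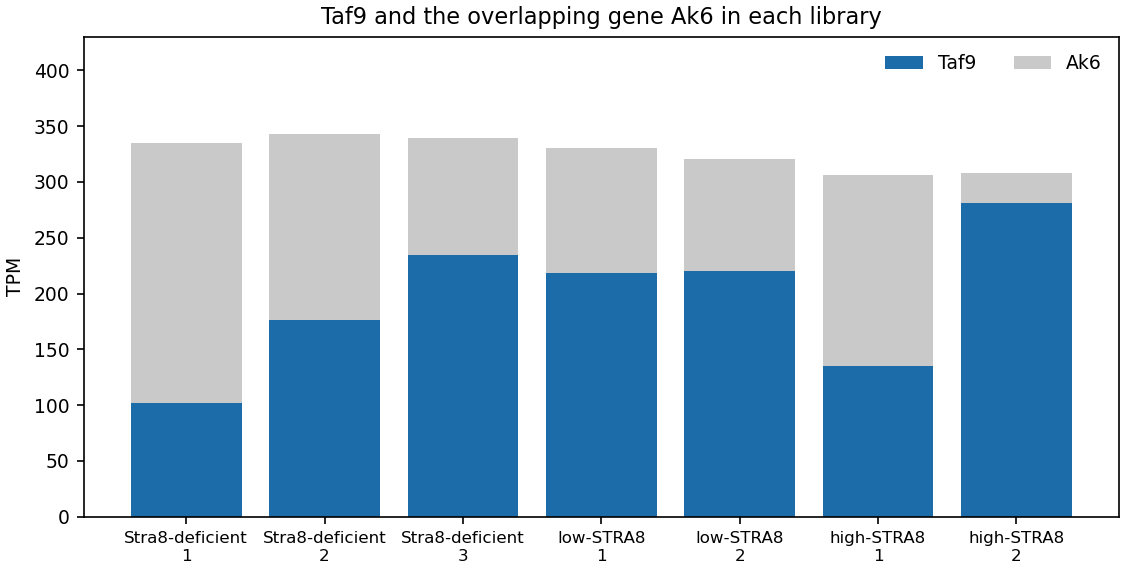
TPM assigned to Taf9 and to Ak6 in each of the 7 libraries, stacked. The stacked totals lie between 306 and 343 TPM, whereas the Taf9 part runs from 102 TPM in Stra8-deficient replicate 1 to 281 TPM in high-STRA8 replicate 2.

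Tbpl1 (ENSMUSG00000071359, chromosome 10, 22703879 to 22731938, minus strand) was the only one of the 8 genes to pass a test in the lower direction by edgeR. It was at 110, 81.3 and 105 TPM in Stra8-deficient, 107 and 114 TPM in low-STRA8, and 71.0 and 70.2 TPM in high-STRA8 libraries. Both high-STRA8 values were below all others, and the other groups overlapped. The shorter Tbpl1 transcript was at 64.6 to 89.1 TPM in Stra8-deficient, 86.4 to 89.3 TPM in low-STRA8 and 51.1 to 51.9 TPM in high-STRA8 libraries. The longer one was at 16.8 to 21.1 TPM, 20.5 to 24.3 TPM and 18.3 to 19.8 TPM, and no test was run on this split. Against low-STRA8 cells the log2 fold change was -0.65 ± 0.155 (edgeR adjusted p = 0.0124), and against Stra8-deficient cells it was -0.28 (adjusted p = 0.162). The first call held in 17 of 20 alternatives and was lost without low-STRA8 replicate 2 (0.056) or high-STRA8 replicate 1 (0.0584) or 2 (0.0896). Exons of Tbpl1 overlap those of Slc2a12 on the opposite strand, and whether counting used strand was not given in the sources used here.

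Tbp (ENSMUSG00000014767, chromosome 17, 15499888 to 15528379, plus strand), the TATA-binding subunit, was at 66.6, 57.1 and 55.0 TPM in Stra8-deficient, 68.4 and 65.1 TPM in low-STRA8, and 67.4 and 67.2 TPM in high-STRA8 libraries. The low-STRA8 and high-STRA8 values overlapped, and 2 of 3 Stra8-deficient values lay below them. Its log2 fold changes were 0.29 (edgeR adjusted p = 0.0623) against Stra8-deficient, 0.10 (0.557) for high-STRA8 against low-STRA8, and 0.20 (0.217) for low-STRA8 against Stra8-deficient cells. Exons of Tbp overlap Pdcd2 on the opposite strand. The ratio of Tbpl1 to Tbp was 1.66, 1.43 and 1.91 in Stra8-deficient, 1.56 and 1.74 in low-STRA8, and 1.05 in both high-STRA8 libraries, so the messages of TBP and its relative were nearly equal only in high-STRA8 cells.

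Taf1 (ENSMUSG00000031314, chromosome X, 101532734 to 101601789, plus strand), which encodes the scaffold subunit and has no paralog among the 8, was at 65.4, 59.3 and 52.2 TPM in Stra8-deficient, 38.7 and 41.3 TPM in low-STRA8, and 85.9 and 94.0 TPM in high-STRA8 libraries. The 3 groups did not overlap, with low-STRA8 cells lowest and high-STRA8 cells highest. Taf1 was higher in high-STRA8 cells than in the knock-out (log2 fold change 0.70 ± 0.112, edgeR adjusted p = 0.00188, 1.63-fold) and than in low-STRA8 cells (1.07 ± 0.126, adjusted p = 0.000975), and both calls held in 20 of 20 alternatives. Low-STRA8 against Stra8-deficient cells gave -0.36 ± 0.115 (edgeR adjusted p = 0.052), which passed in 9 of 20 alternatives. Fold changes moved with transcript length in these libraries: among genes in the longest of 5 length classes, which holds Taf1, Taf4b and Taf4, the median log2 fold changes were 0.04, 0.42 and -0.38 in high-STRA8 against Stra8-deficient, high-STRA8 against low-STRA8 and low-STRA8 against Stra8-deficient cells, against -0.10, -0.34 and 0.27 in the shortest class, which holds Taf9 and Tbpl1. The part of length in the differences of single genes was not tested.

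**Figure D3:**
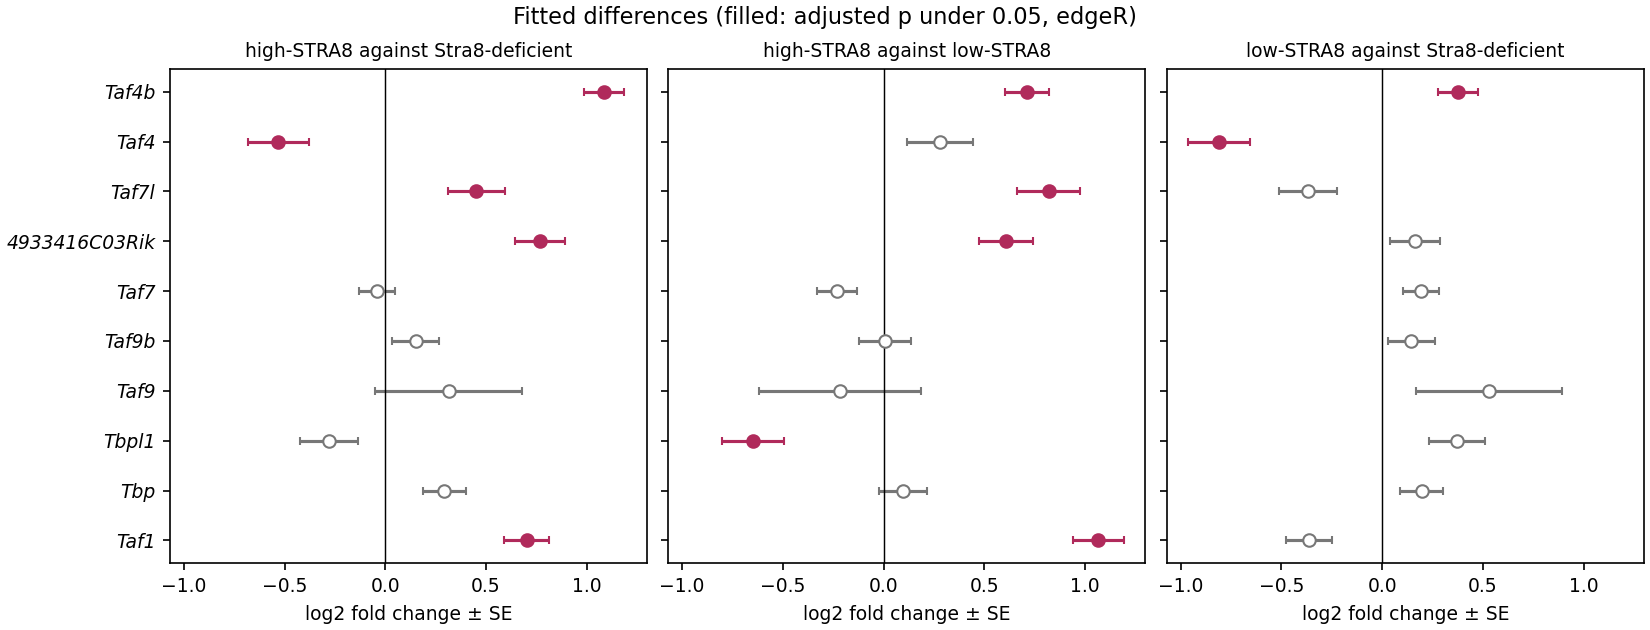
Log2 fold changes ± SE from the edgeR fit for the 8 genes and both comparators in 3 comparisons, with filled points for adjusted p under 0.05. Taf4b, Taf7l, 4933416C03Rik and Taf1 are filled to the right of 0 in both comparisons of high-STRA8 cells, Taf4 is filled to the left in both comparisons with Stra8-deficient cells, and Tbpl1 is filled to the left against low-STRA8 cells.

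The ratio of each paralog to its general subunit compares the levels of both messages within a library. It does not measure the make-up of TFIID. The log2 differences of the ratios in high-STRA8 against Stra8-deficient cells were 1.61 for Taf4b to Taf4, 0.46 for Taf7l to Taf7, 0.82 for 4933416C03Rik to Taf7, -0.20 for Taf9b to Taf9 and -0.66 for Tbpl1 to Tbp. Against low-STRA8 cells they were 0.42, 0.97, 0.85, 0.28 and -0.65 in the same order. Low-STRA8 and Stra8-deficient libraries differed by 1.2 in Taf4b to Taf4, which was the larger step of that ratio. In Taf7l to Taf7 they differed by -0.52, and in Tbpl1 to Tbp their geometric means were both 1.65. With 2 libraries against 3 the exact two-sided permutation test cannot go below p = 0.2, and with 2 against 2 not below p = 0.333, so none of the 15 ratio comparisons could pass a threshold (adjusted p of at least 0.5).

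**Figure D4:**
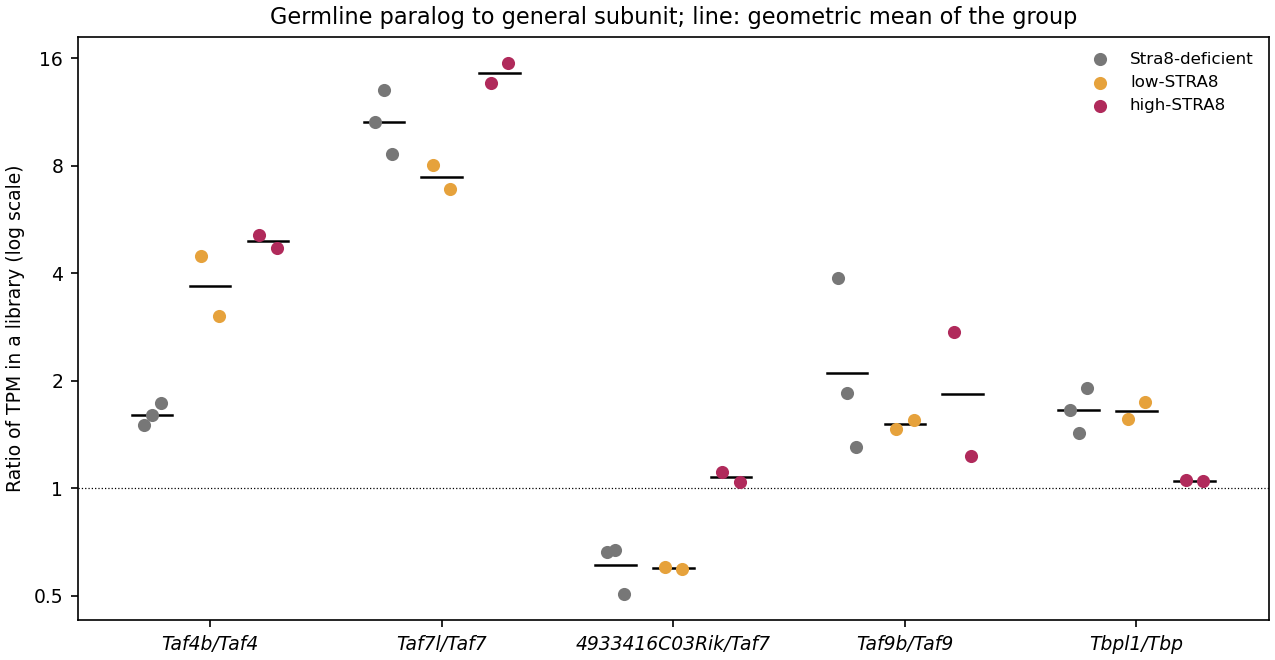
Ratio of the TPM of each paralog to that of its general subunit in each of the 7 libraries, on a log axis. Taf4b to Taf4 separates all heterozygous libraries from the knock-out, Taf7l to Taf7 is highest in high-STRA8 cells, and Tbpl1 to Tbp is 1.05 in both high-STRA8 libraries.

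For the gene lists that follow, the shares of all genes called were those given above for each comparison (18.9% higher and 18.3% lower in high-STRA8 against Stra8-deficient cells). Among the 10 other TFIID subunits, 4 were higher (Taf3, Taf6, Taf11, Taf12) and 2 were lower (Taf4, Taf5) in high-STRA8 cells than in the knock-out, with a median log2 fold change of 0.23. TAF11 pairs with TAF13 in the TFIID lobe that holds TBP, and Taf11 was at 86.2 ± 1.3 TPM (SD, n = 3) in Stra8-deficient, 104 ± 10.3 TPM (n = 2) in low-STRA8 and 143 ± 0.266 TPM (n = 2) in high-STRA8 cells. By edgeR it was called higher in all 3 comparisons, with log2 fold changes of 0.81 (edgeR adjusted p = 0.000404) for high-STRA8 against Stra8-deficient, 0.37 (0.0204) for high-STRA8 against low-STRA8 and 0.44 (0.0124) for low-STRA8 against Stra8-deficient cells. The last of these was lost with limma on log2(TPM + 1), at 0.27 (adjusted p = 0.0545), and without low-STRA8 replicate 1 (edgeR adjusted p = 0.0552). Taf3, whose product reads the promoter mark H3K4me3, was called higher in both comparisons of high-STRA8 cells, by 0.56 (edgeR adjusted p = 0.00279) over Stra8-deficient and 0.70 (0.00228) over low-STRA8 cells. Between the heterozygous groups 2 subunits were higher (Taf3, Taf11) and 0 were lower by edgeR (1 at an unadjusted p under 0.05, 1 by DESeq2), with a median of 0.07. Low-STRA8 against Stra8-deficient cells gave 2 higher (Taf6, Taf11) and 1 lower (Taf4) by edgeR, with a median of 0.08, but 0 higher and 2 lower (Taf3, Taf4) by limma on log2(TPM + 1).

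Other relatives of TFIID subunits, 8 of 10 of which were tested (Tbpl2 and Taf6l were not), gave 4 higher genes (4933416C03Rik, Taf1a, Taf15, Btaf1) and 1 lower gene (Taf5l) in high-STRA8 cells against either other group. The median log2 fold changes were 0.33 and 0.42, and in low-STRA8 against Stra8-deficient cells edgeR called 0 relatives, with 0 at an unadjusted p under 0.05, 0 by DESeq2 and 1 lower by limma on log2(TPM + 1). Taf1a, which encodes a subunit of the RNA polymerase I factor SL1, was higher by 0.77 (edgeR adjusted p = 0.00677) over Stra8-deficient and by 0.93 (0.00557) over low-STRA8 cells. Taf5l, which encodes a SAGA subunit, was lower by -0.54 (edgeR adjusted p = 0.00768) and -0.63 (0.00603).

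The remaining promoter machinery moved in both directions. Of 17 tested general transcription factor genes, 6 were higher (Gtf2a2, Gtf2e1, Gtf2e2, Gtf2f1, Gtf2f2, Gtf2h2) and 3 were lower (Gtf2a1, Ercc3, Cdk7) in high-STRA8 cells than in the knock-out, with a median log2 fold change of 0.14. Against low-STRA8 cells 2 were higher and 3 were lower, and low-STRA8 against Stra8-deficient cells gave 5 higher and 0 lower by edgeR. At an unadjusted p under 0.05 the latter counts were 9 and 2, DESeq2 gave 8 and 0, and limma on log2(TPM + 1) gave 1 and 2, so the direction depends on the scaling. Ercc3, the TFIIH translocase that opens promoter DNA, had 147 TPM on average in Stra8-deficient, 131 TPM in low-STRA8 and 82.3 TPM in high-STRA8 cells, and its log2 fold change against Stra8-deficient cells was -0.75 (edgeR adjusted p = 0.00168). Of 13 RNA polymerase II subunit genes, 2 were higher (Polr2a, Polr2k) and 2 were lower (Polr2c, Polr2e) against Stra8-deficient cells, while 1 was higher (Polr2a) and 8 were lower against low-STRA8 cells, with medians of -0.15 and -0.47. The lower count against Stra8-deficient cells was 4 by DESeq2 and 5 by limma on log2(TPM + 1). Against low-STRA8 cells, 1 higher and 8 lower was also the count by both. Over all genes, fold changes against low-STRA8 cells moved with transcript length, with medians of -0.34 in the shortest class and 0.42 in the longest. The part of length in these counts was not tested. Polr2a, the largest and catalytic subunit, was at 238 ± 4.05 TPM (n = 3), 217 ± 2.81 TPM (n = 2) and 445 ± 42.5 TPM (n = 2) in Stra8-deficient, low-STRA8 and high-STRA8 cells, with log2 fold changes of 1.0 (edgeR adjusted p = 0.000172) and 0.93 (0.000853) in high-STRA8 cells. Of 14 genes for SAGA subunits not in TFIID, 2 were higher (Tada2b, Sgf29) and 6 were lower in high-STRA8 cells than in the knock-out. The lower genes were Supt7l, Supt20, Tada3, Atxn7, Usp22 and Kat2a, and the median of the 14 was -0.20. Against low-STRA8 cells 5 were higher and 3 were lower. Sgf29, whose product binds methylated H3K4, was at 54.6 ± 2.34, 73.3 ± 3.88 and 112 ± 1.67 TPM (SD, n = 3, 2 and 2) in Stra8-deficient, low-STRA8 and high-STRA8 cells, and was called higher in all 3 comparisons by edgeR. The acetyltransferase gene Kat2a was lower by -0.73 (edgeR adjusted p = 0.00274) in high-STRA8 cells than in the knock-out.

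Genes whose levels ran most nearly parallel to Taf4b and to Taf7l were ranked among 9577 genes by the root mean square difference of their centred log2 levels over the 7 libraries. Nearest to Taf4b were Rbmx2 (0.0367), Gpr89 (0.0399), Rfwd3 (0.0408), Cul1 (0.0466) and Paip2b (0.0592). Nearest to Taf7l were Ofd1 (0.0547), Epb41l2 (0.0706), Recql4 (0.0749), Slc5a5 (0.075) and Ttf2 (0.0761). The libraries are shared by all genes, so these likenesses are descriptive.

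STRA8-FLAG ChIP summits, the positions of strongest enrichment within peaks, were looked for within 1 kb of every annotated transcription start site of the 8 genes. A gene was called bound where at least 2 of 3 FLAG/FLAG libraries and no wild-type library had such a summit. Bound were 3 of the 8, Taf4b, Taf7l and Taf9, beside 22.4% of all tested genes, and so was the comparator 4933416C03Rik. Taf4b and Taf7l were bound and also higher in high-STRA8 cells than in the knock-out (10.7% of all tested genes). Taf7, Tbp and Tbpl1 had no FLAG/FLAG summit within 1 kb in any library, with the nearest at 290714 bases for Taf7, 64111 bases for Tbp and 1035245 bases for Tbpl1. Taf1, Taf9b and Taf4 had a summit in FLAG/FLAG replicate 1 alone, with scores of 14.3, 9.32 and 31.5, where the score is MACS2's −log10 p. Replicate 1 had 5687 summits, replicate 2 had 3299 and replicate 3 had 2035, and the wild-type libraries had 798, 45 and 164. By the study's methods, the replicates were processed in 3 batches, each with a FLAG/FLAG and a wild-type sample. Replicate 3 was made with a different library kit. The part of batch and kit in these counts was not tested.

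At Taf4b all 3 FLAG/FLAG libraries had a summit downstream of the start site, in its 5′ UTR, at +91 (score 50.6), +194 (53.3) and +163 bases (32.8). These ranked 377 of 4567, 117 of 2990 and 219 of 1799 genes with a summit in the same library, where the median of the best scores per gene was 16.4, 14.3 and 14.2. Taf4b therefore had the strongest summits of the 8 genes in every FLAG/FLAG library. No wild-type summit lay closer than 430022 bases.

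At Taf9 the summits were at -153 (score 13.1) and -3 bases (17.0) in replicates 1 and 2, with none in replicate 3. The starts of Ak6 and Rad17 also lie within 1 kb of them, so the summits cannot be assigned to Taf9 alone.

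At Taf7l the strongest summits were not at the start of the longer transcript but in the intron upstream of the shorter one. In replicate 1 a summit with a score of 39.5 lay 250 bases before the start of the shorter transcript and 1247 bases after that of the longer one, in replicate 2 (23.3) the distances were 589 and 908 bases, and in replicate 3 (16.5) 216 and 1281 bases. Replicate 1 had a weaker summit (11.2) at +83 bases of the longer transcript, in a coding exon. At 4933416C03Rik the summits lay upstream in all 3 libraries, at -308 (32.0), -182 (40.3) and -186 bases (20.1).

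The summits of Taf7l are shown because they place the signal between its alternative starts, and the region before 4933416C03Rik because it holds several copies of the motif CNCCTCAG, which the study names for STRA8. The sequences are from mm10 (GRCm38) by RefSeq, 5′ to 3′ along the minus strand, on which both genes lie, and capitals mark the motif in either orientation. For Taf7l the 100 bases around the summits of replicate 1 (intron, then coding exon) and replicate 2 (intron) are given, and for 4933416C03Rik the 300 bases before its start site.
Taf7l, intron, replicate 1, chrX:134475193-134475292, minus strand: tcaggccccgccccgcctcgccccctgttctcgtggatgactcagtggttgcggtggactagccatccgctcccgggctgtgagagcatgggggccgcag
Taf7l, coding exon, replicate 1, chrX:134476357-134476456, minus strand: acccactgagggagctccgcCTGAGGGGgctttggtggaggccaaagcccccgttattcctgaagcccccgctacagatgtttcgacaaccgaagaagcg
Taf7l, intron, replicate 2, chrX:134475532-134475631, minus strand: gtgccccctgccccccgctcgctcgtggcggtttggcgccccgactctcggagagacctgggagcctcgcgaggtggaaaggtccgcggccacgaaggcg
4933416C03Rik, before its start, chr10:116113918-116114217, minus strand: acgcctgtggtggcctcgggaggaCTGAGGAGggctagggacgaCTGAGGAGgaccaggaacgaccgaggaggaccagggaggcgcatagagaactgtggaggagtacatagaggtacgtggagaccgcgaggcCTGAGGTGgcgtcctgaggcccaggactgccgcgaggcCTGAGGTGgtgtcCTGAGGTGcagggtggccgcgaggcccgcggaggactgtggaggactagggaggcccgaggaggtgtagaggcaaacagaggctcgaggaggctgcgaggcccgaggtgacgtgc

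In these windows the motif was present at the weak coding-exon summit of Taf7l and absent at both intronic ones, which were the stronger. The 300 bases before 4933416C03Rik held 5 copies, all in the orientation CTGAGGNG, and 2 of all genes (0.0161%) held 5 or more there, while 11.9% of genes held at least 1. A search of the 1 kb on either side of each start site, on both strands, found 3 copies at Taf4b, 4 at Taf7l, 6 at 4933416C03Rik, 2 at Taf1 and 1 each at Taf7 and Taf9b, and none at Taf9, Tbp, Tbpl1 and Taf4. At least 1 copy lay in that window in 46.2% of 12460 expressed genes and at least 3 in 3.42%. The 100 bases around the 3 Taf4b summits held none of its copies, and 12.6% of all 8981 summits at promoters held 1 or more in such a window. A match is a description of the letters and does not show a site of binding.

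**Figure D5:**
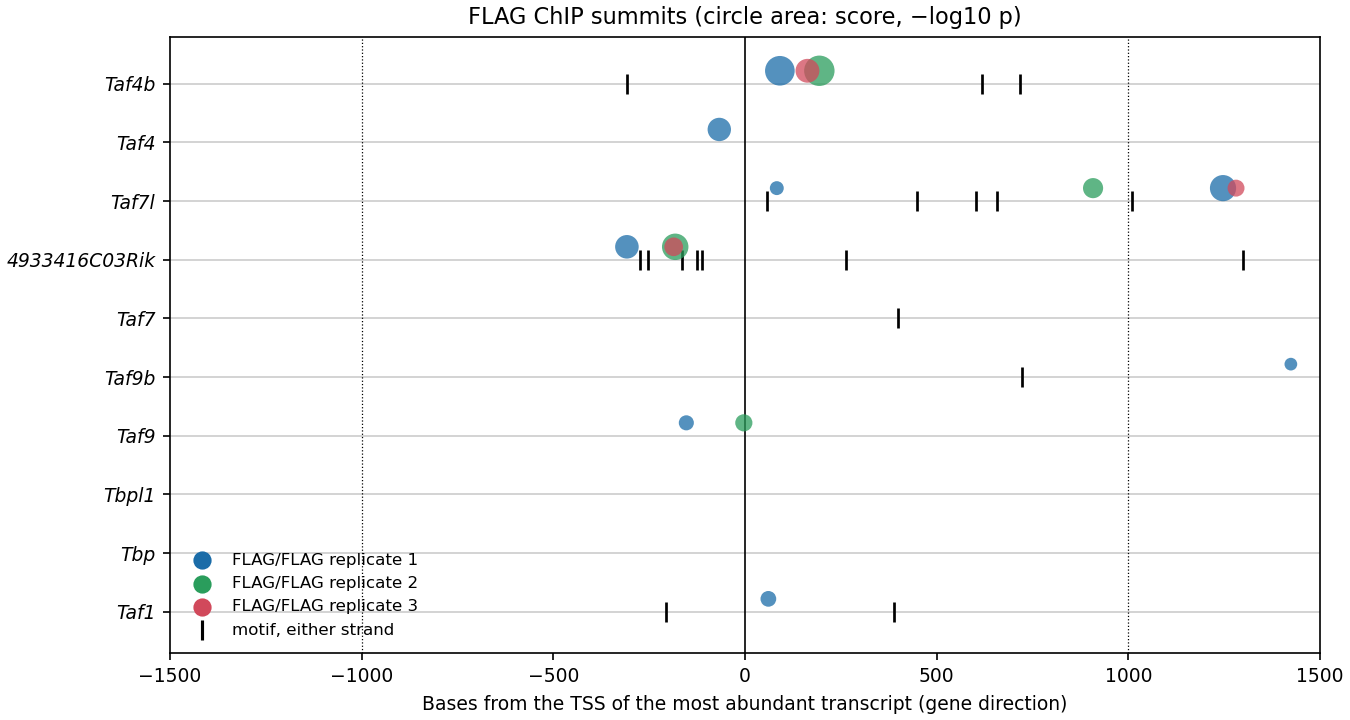
Positions of FLAG/FLAG summits (circles, area by MACS2 score, colour by replicate) and of the motif on either strand (ticks) in bases from the start of each gene's most abundant transcript, for the 8 genes and both comparators. Circles of all 3 libraries appear at Taf4b, Taf7l and 4933416C03Rik, and none at Taf7, Tbpl1 and Tbp.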

How the data were processed

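RNA-seq was measured in 7 libraries and FLAG ChIP-seq in 6 pairs of ChIP and input. Per the submitters' notes, the authors quantified transcripts with kallisto 0.43.0 (Ensembl annotation, sequence-bias correction) and deposited estimated counts and TPM per transcript and gene-level TPM of protein-coding genes. The authors also deposited normalized counts (DESeq2 1.18.1), a signal scaled between libraries. ChIP reads were aligned with Bowtie 1.2.0 (SAMtools 1.3.1), and the authors deposited MACS2 2.1.1.20160309 summits with a score that is −log10 of the p-value, called per library.

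Here, transcript counts were summed to genes, rounded and tested with edgeR 4.0.16 (TMM, quasi-likelihood, groups of all 7 libraries in 1 fit, no block) on genes above 1 TPM in at least 1 library. Of 12545 such genes, 84 could not be joined to counts, and 90.05 to 92.77% of counts were kept. The fit was tested on simulated data. There the share of false calls was above the threshold in each comparison, and most 1.5-fold changes were missed. Far fewer genes were changed in the simulation than were called in these data. The adjustment depends on that share, so the simulated outcome does not carry over to the real fit. A gene that passed no test may still have changed. Start sites came from GENCODE (mm10) and sequence from the RefSeq GRCm38 genome. Ratios used an exact two-sided permutation test. Genes named with values were the 8 members, both comparators, up to 4 of each list with the smallest adjusted p against the knock-out, and the 5 nearest in pattern. The members and lists were chosen with earlier results of these data known. DESeq2 1.42.0, limma 3.58.1 with 1 and 0.1 TPM added, other filters, scalings, a replicate block and leaving out each library were tried. Precision is limited by the spread within groups, which rests on 4 residual degrees of freedom.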

Additional observations from a re-analysis of the deposited data

How the results depend on the processing

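Taf4b and Taf1 in both comparisons of high-STRA8 cells, and Taf7l against low-STRA8 cells, passed in 20 of 20 alternatives. Of all fold changes recomputed for the 8 genes and both comparators, 529 kept direction and side of the threshold, 27 newly passed, 25 no longer passed and 16 changed sign, and of the ratios 96 kept their direction and 7 changed sign. Where a cause is not named below, it was not tested.

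High-STRA8 against Stra8-deficient cells gave 0 lower genes, and 1 under limma on log2(TPM + 1) or log2(TPM + 0.1) (a range of 0 to 1 when a library was left out). High-STRA8 against low-STRA8 cells gave 1 lower gene, 2 with upper-quartile factors (0 to 2 with libraries left out). Low-STRA8 against Stra8-deficient cells gave 1 higher gene, 2 with length offsets or limma on normalized counts, and 0 with both TPM settings (0 to 1 with a library left out). In place of 0 lower genes it gave 2 with DESeq2 and both TPM settings, and 1 with a filter at 10 TPM, length offsets or upper-quartile factors (0 to 2 with a library left out). Leaving out high-STRA8 replicate 2 cut the calls over all genes against Stra8-deficient cells from 2349 higher and 2276 lower to 1280 and 777, and leaving out replicate 1 cut them to 1407 and 1006. Against low-STRA8 cells, 2661 and 2274 became 1219 and 528 without replicate 2 and 1590 and 1010 without replicate 1. In low-STRA8 against Stra8-deficient cells, 1266 and 1730 became 613 and 1082 without Stra8-deficient replicate 2, 749 and 1474 without low-STRA8 replicate 1, and 699 and 1245 or 702 and 1248 without high-STRA8 replicate 1 or 2. In high-STRA8 against Stra8-deficient cells the split became 2040 and 2998 with limma on log2(TPM + 1) and 1920 and 3060 with upper-quartile factors, which moved the median log2 fold change of all genes to -0.13, and in low-STRA8 against Stra8-deficient cells limma on log2(TPM + 1) moved it to -0.15.

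Replicate numbers are shared between groups, and deviations of same-numbered libraries correlated at -0.167 to -0.0268. In a group of 2 the deviations are equal and opposite, so crossing its numbers gives the same values with the opposite sign. These values therefore cannot decide whether libraries were paired or shared a batch. With the number as a replicate block, 2 of the 8 genes were higher against Stra8-deficient cells, since Taf7l did not pass (log2 0.33, edgeR adjusted p = 0.0834), and 1 was higher and 2 were lower in low-STRA8 against Stra8-deficient cells, with Taf9 passing in place of Taf4b. With the low-STRA8 numbers crossed in the block, the latter counts were 2 higher and 2 lower.

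Signs changed only among differences that passed no test. For Taf9, high-STRA8 against Stra8-deficient cells gave -0.079 summed with Ak6 and -0.27 to 0.73 with a library left out, and against low-STRA8 cells -0.80 to 0.20. For Taf9b the value against low-STRA8 cells was -0.00081 with a filter at 10 TPM, -0.024 with limma on normalized counts, -0.086 with upper-quartile factors and -0.075 to 0.092 with a library left out, and low-STRA8 against Stra8-deficient cells gave -0.041 in both TPM settings. Tbp against low-STRA8 cells gave -0.10 with length offsets and -0.12 with limma on normalized counts. For 4933416C03Rik, low-STRA8 against Stra8-deficient cells gave -0.019 in both TPM settings. With a library left out, the log2 ratio of Taf9b to Taf9 ran from -0.78 to 0.38 against Stra8-deficient and from -0.30 to 0.86 against low-STRA8 cells, and in low-STRA8 against Stra8-deficient cells 4933416C03Rik to Taf7 ran from -0.16 to 0.046 and Tbpl1 to Tbp from -0.11 to 0.10. Of the bound genes, Taf4b and Taf7l held in every setting, and Taf9 was lost when all 3 libraries were required or without FLAG/FLAG replicate 1 or 2.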
